A study of Homo sapiens with 16 samples.

Results

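The EMT transcription factors and epithelial repressors described here are 10 genes: SNAI1, SNAI2, TWIST1, TWIST2, ZEB1, ZEB2, PRRX1 and FOXC2, whose products drive the epithelial-to-mesenchymal transition (EMT), and GRHL2 and OVOL1, whose products oppose it. They were chosen by name, out of 57820 genes in the deposited tables, and each symbol was matched to 1 Ensembl gene. A gene was tested in a serum condition when it was protein-coding and its counts over the 8 libraries of that condition came to 10 or more. In both conditions 9 of the 10 genes were tested. OVOL1 was not, with 9 counts over the 8 libraries in low serum and 4 in standard serum.

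The cells came from MDA-MB-231 and MDA-MB-436, human triple-negative breast cancer cell lines that the labels call mesenchymal. All groups carried the 7TGP vector, in which Tcf binding sites drive eGFP as a readout of Wnt activity next to a puromycin resistance cassette, and were selected with puromycin. Repeated sorting by eGFP gave a reporter-negative (7TGP-NEG) and a reporter-positive (7TGP-POS) subline of each line, so that the controls were also transfected, selected and sorted cells and each group stands for 1 sorted subline. Each subline was cultured in low serum (0.5% FBS, harvested on day 3) and in standard serum (10% FBS, harvested on day 6), with 2 biological replicates per group, 8 groups and 16 libraries in all. The replicates are cultures of the same subline, so the p-values measure the spread between these cultures and not between independent sorts. The methods of the study give ribosomal RNA depletion for the low serum libraries and selection of polyadenylated RNA on another sequencer for the standard serum libraries, while the labels name 1 kit for all. The effects of serum, of time in culture and of how and where the libraries were made and sequenced cannot be told apart, so the serum conditions were not tested against each other. The labels name DMEM for both lines and the methods name other media that differ between the lines, so the line and the medium may also be confounded.

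In EMT, epithelial cells lose their junctions and polarity and take on a motile, fibroblast-like state. The SNAIL and ZEB zinc finger proteins and the TWIST helix-loop-helix proteins bind E-boxes and repress epithelial genes such as CDH1, which encodes E-cadherin, while GRHL2 and OVOL1 keep epithelial genes on and repress ZEB1. Wnt signaling is linked to this programme through GSK3, which marks SNAI1 protein for degradation, a step that mRNA levels do not show.

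Libraries held 27918418 to 32667756 counts in low serum and 31827130 to 46044073 in standard serum, and 3 counts in 1 library correspond to 0.0918 to 0.107 and 0.0652 to 0.0943 counts scaled to the library total (CPM), limits that cover counting error only. A group in which no library held more than 3 counts of a gene is called at the floor for that gene. The mesenchymal label was checked with markers in TPM, abundance scaled by transcript length and library, over the 8 group means. CDH1 lay between 0.04 and 0.1 TPM, and VIM between 388 and 3712 TPM. CDH2, which encodes N-cadherin, lay between 100 and 181 TPM in MDA-MB-436 but between 0.225 and 0.65 TPM in MDA-MB-231, and the matrix gene SPARC lay between 0.47 and 1.21 TPM in MDA-MB-231 and between 0.675 and 5.42 TPM in MDA-MB-436. Of the other mesenchymal markers, FN1 lay between 76.05 and 326 TPM in MDA-MB-231 and between 24.3 and 53.1 TPM in MDA-MB-436. AXL lay between 583 and 1087 TPM in MDA-MB-231 and between 49.96 and 116 TPM in MDA-MB-436. Some epithelial markers were present next to these: EPCAM lay between 2.06 and 11.7 TPM and KRT8 between 192 and 361 TPM. KRT18 lay between 80.8 and 408 TPM and CLDN4 between 2.155 and 39.3 TPM. KRT19 lay between 513 and 1070 TPM in MDA-MB-231 but between 0 and 0.95 TPM in MDA-MB-436. ESRP1 lay between 0.205 and 0.985 TPM. Of the leukocyte markers, CD3E did not exceed 0.025 TPM and CD68 did not exceed 0.13 TPM, whereas PTPRC reached 3.14 ± 0.332 and 4.04 ± 0.00707 TPM (SD, n = 2 each) in the 7TGP-NEG and 7TGP-POS cells of MDA-MB-231 in standard serum. The part of other cells in the results was not tested, and in bulk RNA a change in the share of cells that express a gene and a change in RNA per cell cannot be told apart.

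The 2 cell lines expressed different EMT factors. In MDA-MB-231, ZEB1 and SNAI2 were the most abundant, and TWIST1, TWIST2 and FOXC2 were at or near the floor. In MDA-MB-436, TWIST1 was the most abundant, and TWIST2, SNAI1, ZEB1 and ZEB2 were also expressed, in an order that differed between the groups. TPM accounts for transcript length, so genes can be compared as far as the lengths behind it hold. These lengths are not given in the sources used here, and shares and ratios between genes depend on them. The summed TPM of the 8 EMT factors was 61.7 to 67.7 in MDA-MB-231 and 88.4 to 101 in MDA-MB-436 in low serum, and 76.8 to 95.6 and 104 to 120 in standard serum. ZEB1 made up 65.5% of this sum in 7TGP-NEG cells of MDA-MB-231 and 54.0% in 7TGP-POS in low serum (means of 2 libraries), and 60.3% and 48.1% in standard serum. SNAI2 made up 26.3% and 37.2% in low serum. In standard serum these values were 30.2% and 43.3%. TWIST1 made up 34.7% of the sum in 7TGP-NEG cells of MDA-MB-436 and 42.8% in 7TGP-POS in low serum. In standard serum these values were 39.0% and 43.8%.

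**Figure D1:**
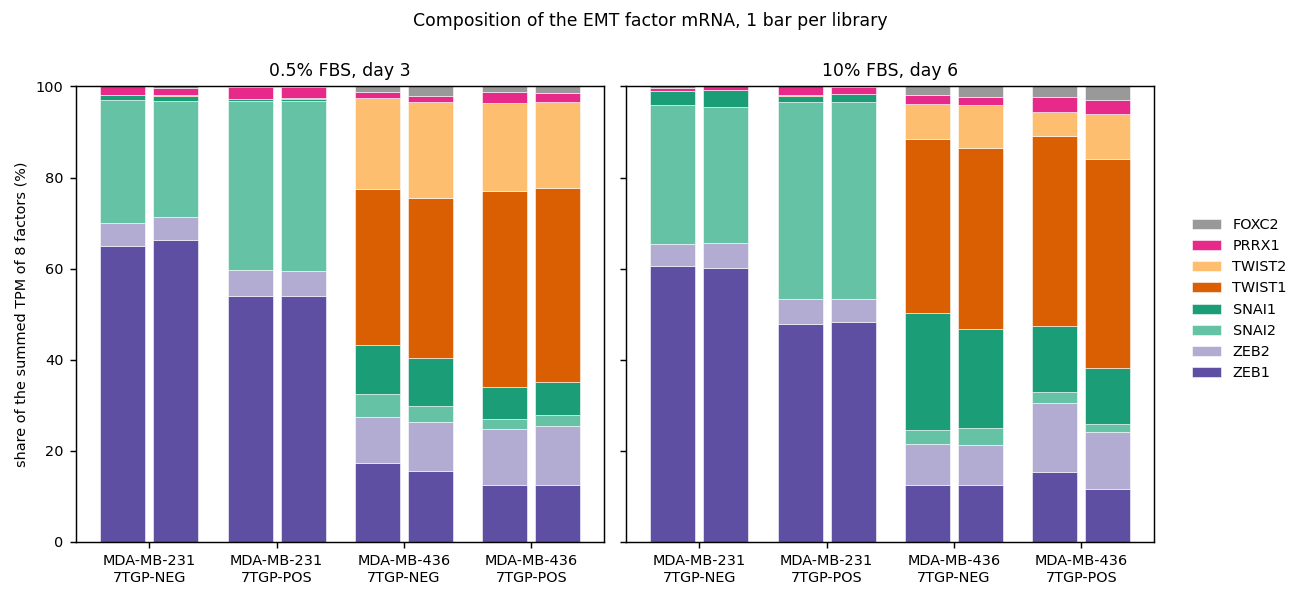
Share of each factor in the summed TPM of the 8 EMT factors (vertical axis, percent), with 1 bar per library, replicate 1 left of replicate 2, in low serum (left) and standard serum (right). ZEB1 (dark purple) and SNAI2 (light green) fill most of every MDA-MB-231 bar, where TWIST1 and TWIST2 (orange) are not visible, and TWIST1 is the largest segment in all 8 MDA-MB-436 bars.

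The next comparison asks which of these genes differed between the cell lines without reporter activity. Between 7TGP-NEG cells of MDA-MB-231 and 7TGP-NEG cells of MDA-MB-436, 7 of the 9 members tested in low serum had an adjusted p under 0.05 (edgeR's quasi-likelihood test, adjusted by Benjamini-Hochberg over all genes tested), 2 higher and 5 lower in MDA-MB-231. In this comparison 79.3% of 16069 genes passed. All 7 also differed by at least 2-fold (a DEG below means both criteria), as did 41.9% of all genes. In standard serum 8 of 9 passed, 2 higher and 6 lower in MDA-MB-231, against 78.8% of 15414 genes, and all 8 were DEGs, against 46.7% of all genes. The members that passed in both serum conditions were SNAI2 and ZEB1, which were higher in MDA-MB-231, and SNAI1, TWIST1, TWIST2, ZEB2 and FOXC2, which were higher in MDA-MB-436.

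The following comparisons ask how the genes changed with reporter activity. In low serum, 3 of 9 members were higher in 7TGP-POS cells of MDA-MB-231 than in 7TGP-NEG and 0 were lower at an adjusted p under 0.05 (edgeR's quasi-likelihood test), against 38.7% of all genes in either direction. None was a DEG by edgeR or by DESeq2, against 5.91% of all genes, and 1 had an unadjusted p under 0.05 with a 2-fold difference. In MDA-MB-436 in low serum, 3 members were higher and 3 lower, against 52% of all genes, and none was a DEG, against 10.6%, whether by edgeR, by DESeq2 or at an unadjusted p under 0.05. The counts in MDA-MB-436 rested partly on 7TGP-NEG replicate 1, without which 3 members in place of 6 passed. In standard serum, 2 members were higher and 1 lower in 7TGP-POS cells of MDA-MB-231, against 33% of all genes, and 1, PRRX1, was a DEG, against 7.69%. SNAI1, with a log2 fold change next to the threshold, was the second DEG with DESeq2 and without 7TGP-NEG replicate 1 or 7TGP-POS replicate 2. In MDA-MB-436 in standard serum, 2 were higher and 2 lower, against 49.5% of all genes, and none was a DEG by edgeR or DESeq2 or at an unadjusted p, against 12.5%. Without MDA-MB-436 7TGP-POS replicate 1, 1 member, SNAI2, was a DEG there. The shares of members that passed lay near or below those of all genes for most of these comparisons, so the counts are not a result about these 10 genes as a class. The comparisons within 1 serum condition come from 1 model, and those that involve the same group share its libraries.

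**Figure D2:**
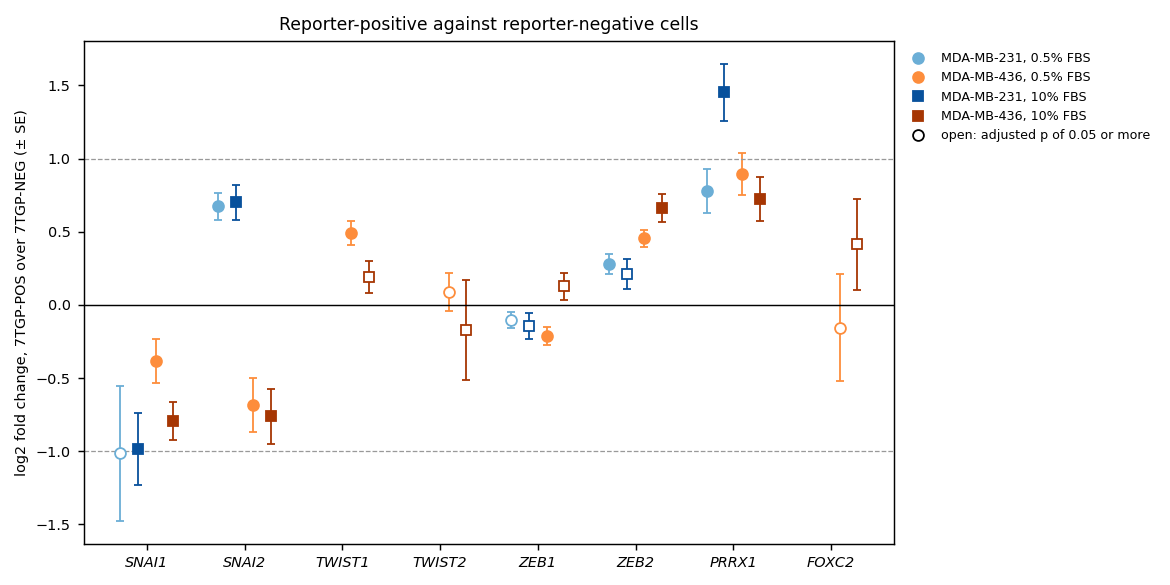
Log2 fold change of 7TGP-POS over 7TGP-NEG (vertical axis) with its standard error (bars) for the 8 EMT factors, by cell line (blue, MDA-MB-231, and orange, MDA-MB-436) and serum (circles, low, and squares, standard), with dashed lines at a 2-fold difference. Comparisons with 1 or both groups at the floor are not drawn, which leaves no MDA-MB-231 points for TWIST1, TWIST2 and FOXC2. PRRX1 is above 0 in all 4 comparisons, SNAI1 is below 0 in all 4, and SNAI2 is above 0 in MDA-MB-231 and below 0 in MDA-MB-436.

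SNAI2 (ENSG00000019549, chromosome 8, 49830157 to 49834299 on the minus strand, GRCh37), which encodes the repressor SLUG, changed in opposite directions in the 2 lines. In low serum, MDA-MB-231 7TGP-NEG replicates 1 and 2 had 18.0 and 16.8 TPM, and 7TGP-POS had 25.1 and 23.0 TPM. In standard serum they had 25.0 and 23.0 TPM, and 41.3 and 39.0 TPM. Both 7TGP-POS libraries lay above both 7TGP-NEG libraries in each serum condition. On the counts SNAI2 was 1.59-fold higher in 7TGP-POS cells of MDA-MB-231 in low serum (log2 fold change 0.67, standard error 0.0917, adjusted p = 1.95e-08 from edgeR's quasi-likelihood test), and 1.63-fold higher in standard serum (0.70, standard error 0.119, edgeR adjusted p = 0.000146). In MDA-MB-436 the levels were low, with 5.10 and 3.21 TPM in 7TGP-NEG and 2.01 and 2.38 TPM in 7TGP-POS in low serum, and with 3.20 and 4.08 against 2.66 and 1.89 TPM in standard serum. The groups did not overlap, and SNAI2 was 1.61-fold lower in 7TGP-POS cells of MDA-MB-436 in low serum (log2 fold change -0.68, standard error 0.181, edgeR adjusted p = 0.00122) and 1.69-fold lower in standard serum (-0.76, standard error 0.188, edgeR adjusted p = 0.00256). These 2 calls rested on single 7TGP-NEG libraries. Without MDA-MB-436 7TGP-NEG replicate 1 in low serum, the log2 fold change was -0.42 (edgeR adjusted p = 0.126), and without 7TGP-NEG replicate 2 in standard serum it was -0.59 (edgeR adjusted p = 0.0589).

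The difference between the responses of the 2 lines was tested as an interaction in the same model. In low serum SNAI2 was the only 1 of the 9 members to pass, against 45.7% of all genes, and it was also a DEG, against 11.7%. Its log2 fold change was 1.36 higher in MDA-MB-231 than in MDA-MB-436 (standard error 0.203, edgeR adjusted p = 1.35e-07). Without MDA-MB-436 7TGP-NEG replicate 2, 2 members passed, the other being ZEB1 (0.22, edgeR adjusted p = 0.0444). In standard serum 3 members passed, SNAI2, ZEB2 and PRRX1, against 41.2% of all genes, and SNAI2 was the only DEG, against 13.8%, with a log2 difference of 1.46 (standard error 0.223, edgeR adjusted p = 3.83e-05). Between the lines, SNAI2 was 5.52-fold higher in 7TGP-NEG cells of MDA-MB-231 than in 7TGP-NEG cells of MDA-MB-436 in low serum (edgeR adjusted p = 7.08e-25) and 7.36-fold higher in standard serum (edgeR adjusted p = 2.06e-12).

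SNAI1 (ENSG00000124216, chromosome 20, 48599517 to 48605423 on the plus strand, GRCh37), which encodes SNAIL, was lower in 7TGP-POS in both lines. In MDA-MB-231 in low serum it had few counts, 15 and 15 in 7TGP-NEG and 6 and 8 in 7TGP-POS, all above the floor. The deposited TPM gives these as 0.71 and 0.74 against 0.27 and 0.34. In standard serum 7TGP-NEG cells of MDA-MB-231 had 2.63 and 2.89 TPM and 7TGP-POS had 1.38 and 1.46 TPM. No 7TGP-POS library reached a 7TGP-NEG library in either serum condition. The log2 fold change was -1.01 in low serum (standard error 0.462), which did not pass (edgeR adjusted p = 0.0775), and -0.99 in standard serum (standard error 0.247, edgeR adjusted p = 0.00446). With limma on log2(TPM + 1) the low serum value was -0.40 and passed (limma adjusted p = 0.0144), on a scale where the median of all genes shifted to -0.13. In MDA-MB-436 SNAI1 was more abundant, with 10.7 and 9.77 TPM in 7TGP-NEG and 6.20 and 7.07 TPM in 7TGP-POS in low serum, and with 26.7 and 23.6 against 15.9 and 15.0 TPM in standard serum. Again the groups did not overlap. SNAI1 was 1.30-fold lower in 7TGP-POS cells of MDA-MB-436 in low serum (edgeR adjusted p = 0.0263) and 1.73-fold lower in standard serum (log2 fold change -0.79, standard error 0.133, edgeR adjusted p = 7.33e-05). The low serum call did not hold with the DESeq2 Wald test (adjusted p = 0.191) or when any 1 of the 4 MDA-MB-436 libraries was left out (edgeR adjusted p between 0.0558 and 0.0709). The interaction did not pass, with log2 differences of -0.63 (standard error 0.487) and -0.19 (standard error 0.279).

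SNAI1 was 10.6-fold higher in 7TGP-NEG cells of MDA-MB-436 than in 7TGP-NEG cells of MDA-MB-231 in low serum (edgeR adjusted p = 1.74e-19) and 8.11-fold higher in standard serum (edgeR adjusted p = 7.16e-12). The lines therefore differed in which SNAIL gene was more abundant. The TPM of SNAI2 divided by that of SNAI1 was 25.4 and 22.7 in 7TGP-NEG cells of MDA-MB-231 and 93.1 and 67.5 in 7TGP-POS in low serum, and 9.51 and 7.97 against 29.9 and 26.7 in standard serum. In MDA-MB-436 the ratio was below 1 in all 8 libraries, from 0.12 to 0.477. The 50 genes that lie nearest to SNAI1 on chromosome 20 had a median log2 fold change of -0.23 and -0.27 in MDA-MB-231 in low and standard serum, in the same direction as SNAI1, and of 0.30 and 0.40 in MDA-MB-436, in the opposite direction. Around SNAI2 these medians lay between -0.12 and 0.08. The processed pseudogene SNAI1P1 held at most 4 counts in any library.

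**Figure D3:**
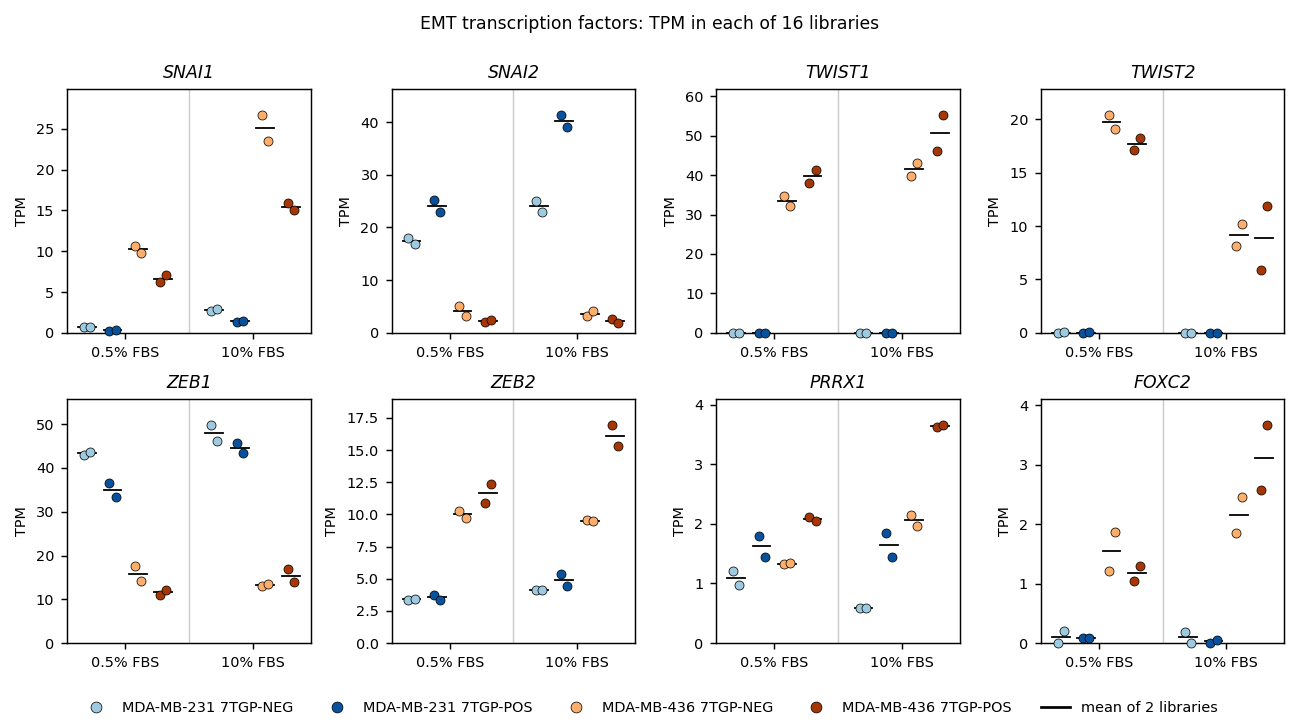
TPM of 8 EMT factors (vertical axes, linear, 1 panel per gene with its own scale) in each of the 16 libraries, by serum (horizontal axis) and group (colours), with 1 point per library and a line at the mean of 2 libraries. TWIST1 and TWIST2 lie at 0 or next to it in all 8 MDA-MB-231 libraries, and SNAI2 and ZEB1 are higher in MDA-MB-231 than in MDA-MB-436.

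TWIST1 (ENSG00000122691, chromosome 7, 19060614 to 19157259 on the minus strand, GRCh37) and TWIST2 (ENSG00000233608, chromosome 2, 239756673 to 239832230 on the plus strand), which encode related helix-loop-helix factors of mesoderm and neural crest, were detected in MDA-MB-436 and at the floor in MDA-MB-231. TWIST1 held 0 to 2 counts in each of the 8 MDA-MB-231 libraries and TWIST2 0 or 1. In MDA-MB-436 in low serum, TWIST1 had 34.7 and 32.1 TPM in 7TGP-NEG and 38.1 and 41.3 TPM in 7TGP-POS. In standard serum it had 39.7 and 43.2 TPM in 7TGP-NEG and 46.1 and 55.2 TPM in 7TGP-POS. Both 7TGP-POS libraries were higher in each condition. On the counts TWIST1 was 1.41-fold higher in 7TGP-POS cells of MDA-MB-436 in low serum (log2 fold change 0.49, standard error 0.0823, edgeR adjusted p = 1.09e-06). With limma on log2(TPM + 1) the low serum value was 0.24 (limma adjusted p = 0.12), on a scale where the median of all genes shifted to -0.15. In standard serum the log2 fold change was 0.19 (standard error 0.107) and did not pass (edgeR adjusted p = 0.155). Without 7TGP-POS replicate 1 it was 0.30 (edgeR adjusted p = 0.0348). The 50 genes nearest to TWIST1 had a median log2 fold change of 0.40 and 0.48 in MDA-MB-436 in low and standard serum, about as large as that of TWIST1 or larger. Whether this region of chromosome 7 accounts for the value was not tested.

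TWIST2 had 20.4 and 19.1 TPM in 7TGP-NEG cells of MDA-MB-436 and 17.1 and 18.3 TPM in 7TGP-POS in low serum, and 8.12 and 10.2 against 5.92 and 11.9 TPM in standard serum, where the groups overlapped. Its log2 fold changes of 0.09 (standard error 0.128) and -0.17 (standard error 0.342) did not pass (edgeR adjusted p = 0.604 and 0.728). The standard serum value depended on the 7TGP-POS replicates, at 0.25 without replicate 1 and -0.73 without replicate 2 (edgeR adjusted p = 0.0336). In low serum its sign differed between the counts and the TPM values, where the median of all genes also moved. Between the lines, TWIST1 in standard serum, with 0 counts in both 7TGP-NEG libraries of MDA-MB-231, was at least 260-fold higher in 7TGP-NEG cells of MDA-MB-436, against a floor of 3 counts per library, and TWIST2 was at least 33.3-fold higher. In low serum, the ratio of summed CPM was 677 for TWIST1 (95% exact interval 187 to 5595, over 2 counts in 7TGP-NEG cells of MDA-MB-231) and 463 for TWIST2 (82.7 to 18317, over 1 count). Both intervals cover counting error in the pooled counts of each group and not the spread between cultures.

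ZEB1 (ENSG00000148516, chromosome 10, 31607424 to 31818742 on the plus strand, GRCh37), the zinc finger repressor of CDH1 and of the miR-200 family, was the most abundant factor in MDA-MB-231 and moved little with reporter activity. In low serum it had 43.0 and 43.7 TPM in 7TGP-NEG cells of MDA-MB-231 and 36.6 and 33.3 TPM in 7TGP-POS. In standard serum it had 49.7 and 46.2 against 45.7 and 43.5 TPM. The 7TGP-POS libraries were the lower ones in both conditions, but the log2 fold changes on the counts, -0.10 (standard error 0.0544) and -0.14 (standard error 0.0883), did not pass (edgeR adjusted p = 0.138 and 0.236). They passed in low serum without MDA-MB-231 7TGP-POS replicate 2 (edgeR adjusted p = 0.0486), and in standard serum without MDA-MB-436 7TGP-POS replicate 1 or 2, which enter the shared spread (edgeR adjusted p = 0.0388 and 0.0378). In MDA-MB-436, ZEB1 had 17.6 and 14.2 TPM in 7TGP-NEG and 11.0 and 12.2 TPM in 7TGP-POS in low serum. In standard serum the values were 12.9 and 13.4 TPM against 16.9 and 13.8 TPM. ZEB1 was thus lower in 7TGP-POS in low serum, 1.16-fold (log2 fold change -0.21, standard error 0.0624, edgeR adjusted p = 0.00372), a call that was lost without 7TGP-NEG replicate 1 (edgeR adjusted p = 0.083). The standard serum log2 fold change of 0.13 (standard error 0.0929, edgeR adjusted p = 0.278) became -0.05 without 7TGP-POS replicate 1 and 0.26 without replicate 2 (edgeR adjusted p = 0.00613). The interaction in standard serum, -0.27 (standard error 0.128, edgeR adjusted p = 0.102), became -0.42 without that replicate 2 (edgeR adjusted p = 0.00145). Between the lines, ZEB1 was 3.62-fold higher in 7TGP-NEG cells of MDA-MB-231 in low serum (edgeR adjusted p = 6.98e-34) and 4.08-fold higher in standard serum (edgeR adjusted p = 4.29e-13). The antisense gene ZEB1-AS1, which lies on the opposite strand, held 64 to 284 counts per library in low serum and 86 to 503 in standard serum, and the strand setting of the counting is not given in the sources used here.

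ZEB2 (ENSG00000169554, chromosome 2, 145121931 to 145278624 on the minus strand, GRCh37), the paralog of ZEB1, was higher in 7TGP-POS in MDA-MB-436. Its levels there were 10.3 and 9.76 TPM in 7TGP-NEG and 10.9 and 12.4 TPM in 7TGP-POS in low serum, and 9.53 and 9.49 against 16.9 and 15.3 TPM in standard serum. The groups did not overlap. On the counts the increase was 1.37-fold in low serum (log2 fold change 0.46, standard error 0.0583, edgeR adjusted p = 2.17e-09) and 1.58-fold in standard serum (0.66, standard error 0.0936, edgeR adjusted p = 1.19e-05). In MDA-MB-231, ZEB2 had 3.35 and 3.45 TPM in 7TGP-NEG and 3.77 and 3.37 TPM in 7TGP-POS in low serum, where the TPM values overlapped and the CPM values did not. The log2 fold change on the counts was 0.28 (standard error 0.0684, edgeR adjusted p = 0.000757). In standard serum, with 4.12 and 4.12 TPM against 5.37 and 4.42 TPM, it was 0.21 (standard error 0.101) and did not pass (edgeR adjusted p = 0.123), and without 7TGP-POS replicate 2 it was 0.35 (edgeR adjusted p = 0.0282). The low serum calls of both lines were absent with limma on log2(TPM + 1), at 0.05 in MDA-MB-231 (limma adjusted p = 0.824) and 0.20 in MDA-MB-436 (limma adjusted p = 0.219), a scale on which the median of all genes shifted to -0.13 and -0.15. The 50 genes nearest to ZEB2 had a median log2 fold change of 0.18 and 0.14 in MDA-MB-231 in low and standard serum. In MDA-MB-436 these medians were 0.17 and 0.05. Whether this region of chromosome 2 accounts for part of the ZEB2 values was not tested.

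The response of ZEB2 was larger in MDA-MB-436 than in MDA-MB-231 in standard serum, by 0.45 on the log2 scale (interaction -0.45, standard error 0.137, edgeR adjusted p = 0.0128). This call was lost without MDA-MB-231 7TGP-POS replicate 2 (edgeR adjusted p = 0.0939) or MDA-MB-436 7TGP-NEG replicate 2 (edgeR adjusted p = 0.0535). Between the lines, ZEB2 was 2.23-fold higher in 7TGP-NEG cells of MDA-MB-436 in low serum (edgeR adjusted p = 5.82e-23) and 2.06-fold higher in standard serum (edgeR adjusted p = 1.57e-08). The TPM of ZEB1 divided by that of ZEB2 was 12.8 and 12.7 in 7TGP-NEG cells of MDA-MB-231 and 9.70 and 9.88 in 7TGP-POS in low serum, and 12.1 and 11.2 against 8.51 and 9.84 in standard serum. In MDA-MB-436 it was 1.71 and 1.45 against 1.01 and 0.982 in low serum, and 1.36 and 1.42 against 0.998 and 0.906 in standard serum. The ratio was lower in 7TGP-POS than in 7TGP-NEG in all 4 pairs of groups, with no overlap.

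PRRX1 (ENSG00000116132, chromosome 1, 170631869 to 170708562 on the plus strand, GRCh37), which encodes a paired-related homeobox factor of mesenchyme, was higher in 7TGP-POS in both lines and both serum conditions. In MDA-MB-231 it had 1.21 and 0.97 TPM in 7TGP-NEG and 1.79 and 1.45 TPM in 7TGP-POS in low serum, and 0.58 and 0.59 against 1.85 and 1.45 TPM in standard serum. In MDA-MB-436 it had 1.32 and 1.34 against 2.11 and 2.05 TPM in low serum, and 2.15 and 1.97 against 3.63 and 3.65 TPM in standard serum. In no pair did the groups overlap, and the raw counts behind the values were 42 to 365 per library. The increase was 1.71-fold in MDA-MB-231 in low serum (log2 fold change 0.78, standard error 0.150, edgeR adjusted p = 2.31e-05). With limma on log2(TPM + 0.1) this call was absent (limma adjusted p = 0.0675), on a scale where the median of all genes shifted to -0.19. In standard serum the increase was 2.74-fold (1.45, standard error 0.195, edgeR adjusted p = 1.20e-05), the only DEG of the 9 members in either line. In MDA-MB-436 it was 1.86-fold in low serum (0.89, standard error 0.147, edgeR adjusted p = 7.47e-07) and 1.65-fold in standard serum (0.72, standard error 0.150, edgeR adjusted p = 0.000582). The 50 genes nearest to PRRX1 had medians between 0.10 and 0.18 in these 4 comparisons.

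The response of PRRX1 was larger in MDA-MB-231 than in MDA-MB-436 in standard serum, by 0.73 on the log2 scale (standard error 0.248, edgeR adjusted p = 0.0247). That call was lost with the DESeq2 Wald test (adjusted p = 0.1) and without MDA-MB-231 7TGP-NEG replicate 1 (edgeR adjusted p = 0.0844), 7TGP-NEG replicate 2 (0.0535), 7TGP-POS replicate 1 (0.111) or MDA-MB-436 7TGP-NEG replicate 1 (0.0927). In low serum the interaction was -0.12 (standard error 0.212, edgeR adjusted p = 0.694). Between the lines, PRRX1 did not pass in low serum, where 7TGP-NEG cells of MDA-MB-231 was 0.11 higher on the log2 scale (standard error 0.163, edgeR adjusted p = 0.536) and the CPM values overlapped. In standard serum it was 3.14-fold higher in 7TGP-NEG cells of MDA-MB-436 (edgeR adjusted p = 2.26e-07).

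Promoter sequence is shown for PRRX1 and ZEB2, which rose in 4 and 3 of the 4 reporter comparisons, and for ZEB1, the most abundant factor in MDA-MB-231. RefSeq's table on GRCh38.p14 held entries for 4 of the 10 members, TWIST2 being the fourth. The 250 bases before the first listed start are given 5′ to 3′ on the strand of the gene, at chr1:170663881-170664130 (plus) for PRRX1, chr2:144520120-144520369 (minus) for ZEB2 and chr10:31318167-31318416 (plus) for ZEB1, the first of 7 starts. Capitals mark the E-box CACCTG that SNAIL and ZEB proteins bind, on either strand (CAGGTG on the other). The Tcf/Lef core TCAAAG was searched in the same way (CTTTGA on the other strand).
PRRX1: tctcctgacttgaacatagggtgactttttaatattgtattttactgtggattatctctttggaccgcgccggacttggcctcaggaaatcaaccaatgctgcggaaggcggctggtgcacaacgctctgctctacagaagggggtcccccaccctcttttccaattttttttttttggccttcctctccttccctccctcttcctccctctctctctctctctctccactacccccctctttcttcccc
ZEB2: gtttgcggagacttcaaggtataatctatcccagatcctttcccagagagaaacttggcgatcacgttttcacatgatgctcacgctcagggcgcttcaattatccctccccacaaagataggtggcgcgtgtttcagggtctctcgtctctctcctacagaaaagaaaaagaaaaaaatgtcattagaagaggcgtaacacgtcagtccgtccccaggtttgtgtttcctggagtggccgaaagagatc
ZEB1: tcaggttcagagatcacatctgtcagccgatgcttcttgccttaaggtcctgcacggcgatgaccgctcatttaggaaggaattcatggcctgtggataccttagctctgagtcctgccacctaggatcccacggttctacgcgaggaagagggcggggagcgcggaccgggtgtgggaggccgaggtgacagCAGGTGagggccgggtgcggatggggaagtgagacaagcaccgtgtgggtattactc
ZEB1 held 1 E-box and the other windows none, and TCAAAG was in none of the 3. Of 35116 promoter windows of this length in the table, 17.5% held CACCTG and 11.2% held TCAAAG on either strand. A match in letters is a description and not a binding site.

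FOXC2 (ENSG00000176692, chromosome 16, 86600435 to 86603334 on the plus strand, GRCh37), a forkhead factor of mesenchyme and lymphatic vessels, was expressed at a low level in MDA-MB-436. It had 1.21 and 1.87 TPM in 7TGP-NEG and 1.04 and 1.30 TPM in 7TGP-POS in low serum, where the groups overlapped, and 1.85 and 2.46 against 2.58 and 3.66 TPM in standard serum, where they did not. Neither log2 fold change passed, at -0.15 (standard error 0.368, edgeR adjusted p = 0.761) and 0.41 (standard error 0.313, edgeR adjusted p = 0.295). These values rest on 21 to 60 counts per library. In MDA-MB-231 no library held more than 4 counts. FOXC2 was 11.4-fold higher in 7TGP-NEG cells of MDA-MB-436 than in 7TGP-NEG cells of MDA-MB-231 in low serum (edgeR adjusted p = 1.95e-06), a ratio against libraries of 0 and 4 counts whose log2 value, MDA-MB-231 over MDA-MB-436, moved from -3.51 to -2.53 without the library of 0 counts and to -7.64 without that of 4. In standard serum the ratio of summed CPM was 22.7 (95% exact interval 7.47 to 113, over 3 counts in 7TGP-NEG cells of MDA-MB-231). This interval covers counting error in the pooled counts and not the spread between cultures.

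The epithelial repressors were close to absent from the counts. GRHL2 (ENSG00000083307, chromosome 8, 102504667 to 102681954 on the plus strand, GRCh37), a grainyhead factor that maintains epithelial junctions, held 0, 6, 4 and 0 counts in the MDA-MB-231 libraries and 0, 2, 2 and 0 in the MDA-MB-436 libraries in low serum, in the order 7TGP-NEG replicates 1 and 2 and 7TGP-POS replicates 1 and 2. In standard serum no library held more than 2. OVOL1 (ENSG00000172818, chromosome 11, 65554534 to 65564685 on the plus strand), a zinc finger factor of epithelial differentiation, held at most 3 counts in low serum and at most 1 in standard serum. At this depth no difference between groups was detectable, and GRHL2 did not pass in any comparison (edgeR adjusted p between 0.105 and 0.997).

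The other genes of the EMT programme were read from lists, by counts and medians. The lists were written with earlier results of these data known, so their counts and medians are a description. Of all genes tested, 38.7% and 33% passed in MDA-MB-231 in low and standard serum and 52% and 49.5% passed in MDA-MB-436. Of 16 other EMT transcription factors, all tested, 5 were higher and 6 lower in 7TGP-POS cells of MDA-MB-231 in low serum (edgeR adjusted p under 0.05, median log2 fold change -0.24), and 4 and 5 in standard serum (median -0.06). In MDA-MB-436, 6 were higher and 4 lower in low serum (median 0.03), and 7 and 1 in standard serum (median 0.30). The medians of all genes tested lay between -0.0063 and 0.0091 in these 4 comparisons. TCF4, a helix-loop-helix E2 protein, rose from 0.32 ± 0.0424 to 2.52 ± 0.212 TPM (SD, n = 2 each) in low serum MDA-MB-231, with 3.17 as the log2 fold change on the counts (standard error 0.112, edgeR adjusted p = 3.75e-30), and by 4.05 (standard error 0.161, edgeR adjusted p = 1.43e-12) in standard serum. KLF8, a zinc finger repressor, was higher in 7TGP-POS in both lines and both serum conditions, with log2 fold changes of 1.04 and 2.66 in MDA-MB-231 (edgeR adjusted p = 6.27e-09 and 8.66e-09) and 1.65 and 1.72 in MDA-MB-436 (edgeR adjusted p = 0.0236 and 0.0204), where its level did not exceed 0.1 TPM. SOX9 was higher in 7TGP-POS cells of MDA-MB-436, by 1.03 and 1.16 (edgeR adjusted p = 6.21e-20 and 2.11e-09). In MDA-MB-231 it fell by 0.50 and 0.77 (edgeR adjusted p = 5.38e-11 and 4.60e-07), and the interaction passed, at -1.53 and -1.92 (edgeR adjusted p = 8.10e-22 and 2.79e-10). FOXQ1, a forkhead factor, fell by 1.06 in MDA-MB-231 in low serum (edgeR adjusted p = 2.54e-19).

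Among 16 other epithelial transcription and splicing factors, of which 15 were tested, 4 were higher and 5 lower in 7TGP-POS cells of MDA-MB-231 in low serum (median log2 fold change -0.29) and 4 and 4 in standard serum (median -0.13). In MDA-MB-436 the numbers were 4 and 6 (median -0.32), and 4 and 3 (median -0.02). TP63, which encodes the basal epithelial factor p63, rose by 2.27 on the log2 scale in MDA-MB-231 in low serum (edgeR adjusted p = 2.73e-23) and by 3.67 in standard serum (edgeR adjusted p = 2.12e-09), and FOXA1, a luminal factor, from 0.03 to 0.58 TPM and from 0.025 to 0.86 TPM (edgeR adjusted p = 7.51e-09 and 6.43e-06). In MDA-MB-436 in standard serum, the ETS factor ELF3 fell by 1.43 on the log2 scale (edgeR adjusted p = 9.67e-10) and EHF by 1.33 (edgeR adjusted p = 2.35e-05). OVOL2, the paralog of OVOL1, fell by 1.60 and 1.00 in MDA-MB-436 in low and standard serum (edgeR adjusted p = 0.00238 and 0.0169). TP63 rose there too, by 1.14 in low serum (edgeR adjusted p = 0.000313). DEGs of this list went both ways in each line. In MDA-MB-436, low serum gave 2 higher and 1 lower, and standard serum 1 higher and 3 lower. In MDA-MB-231, low serum gave 3 higher and 1 lower, and standard serum 3 higher and 2 lower.

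**Figure D4:**
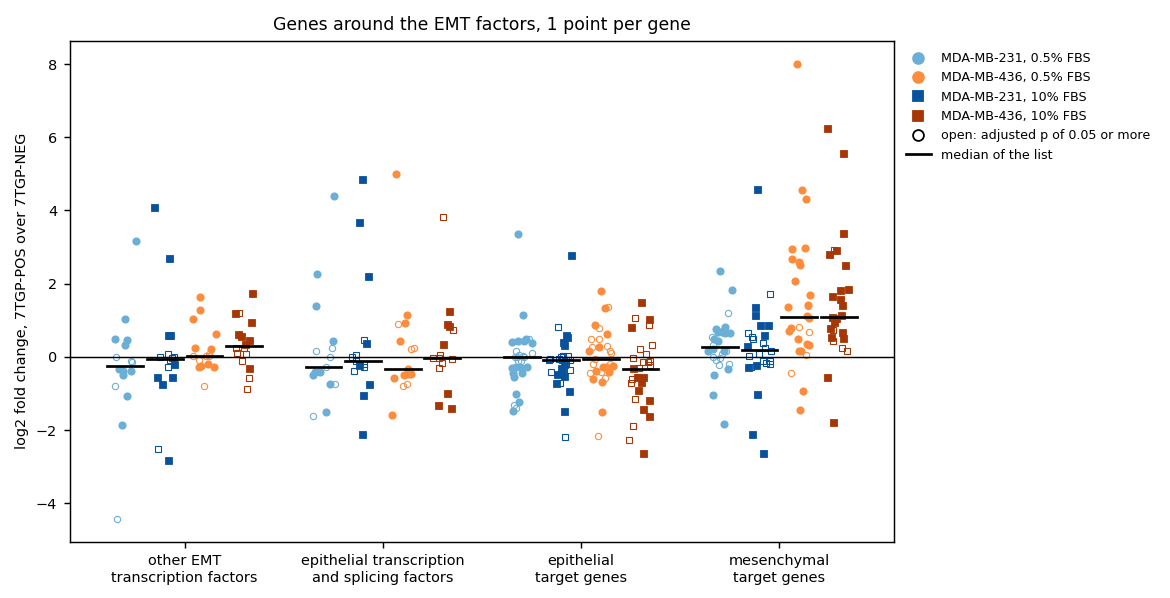
Log2 fold change of 7TGP-POS over 7TGP-NEG (vertical axis) for each tested gene of 4 lists (horizontal axis), by cell line and serum (colours and symbols), with open symbols for genes that did not pass and a black line at the median of each list. The mesenchymal target genes have medians of 1.08 and 1.09 in MDA-MB-436, against 0.27 and 0.19 in MDA-MB-231. The lists were written with earlier results of these data known. Fitted values of genes with almost no counts in 1 group depend on the prior count.

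Of 30 epithelial target genes, 29 were tested, and 7 were higher and 10 lower in 7TGP-POS cells of MDA-MB-231 in low serum (median log2 fold change -0.0037) and 5 and 8 in standard serum (median -0.09). In MDA-MB-436, 6 were higher and 8 lower in low serum (median -0.06) and 3 and 9 in standard serum (median -0.34). The interaction passed for 6 genes in the direction of MDA-MB-231 and 9 in that of MDA-MB-436 in low serum, against 45.7% of all genes, and for 9 and 5 in standard serum, against 41.2%. CDH1, the classical target of SNAIL and ZEB proteins, did not pass in any of these comparisons (edgeR adjusted p between 0.449 and 0.713), at levels of at most 0.1 TPM. EPCAM did not pass either (edgeR adjusted p between 0.343 and 0.765). JUP, which encodes the junction protein plakoglobin, fell by 1.49 and 2.65 on the log2 scale in 7TGP-POS cells of MDA-MB-436 in low and standard serum (edgeR adjusted p = 3.73e-26 and 5.88e-13), and CLDN1, a tight junction gene, rose by 3.37 and 2.76 in MDA-MB-231 (edgeR adjusted p = 2.48e-31 and 1.09e-13).

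Of 28 mesenchymal target genes, of which 28 entered the low serum test and 26 the standard serum test, 21 were higher and 2 lower in 7TGP-POS cells of MDA-MB-436 in low serum (median log2 fold change 1.08) and 19 and 2 in standard serum (median 1.09). In MDA-MB-231, 14 were higher and 4 lower in low serum (median 0.27) and 7 and 5 in standard serum (median 0.19). The interaction passed for 4 genes in the direction of MDA-MB-231 and 17 in that of MDA-MB-436 in low serum, against 45.7% of all genes, and for 2 and 15 in standard serum, against 41.2%. The matrix protease gene MMP2 rose by 4.31 and 3.35 in MDA-MB-436 (edgeR adjusted p = 1.60e-39 and 7.96e-13). VIM fell by 1.05 and 1.03 in MDA-MB-231 (edgeR adjusted p = 3.79e-22 and 1.17e-08) and rose by 0.16 and 0.49 in MDA-MB-436 (edgeR adjusted p = 0.0158 and 4.77e-05), although in low serum its mean TPM there was lower in 7TGP-POS, 388 against 411. FN1 had a mean of 326 TPM in 7TGP-NEG and 76.05 TPM in 7TGP-POS cells of MDA-MB-231 in standard serum. In low serum its means there were 173 and 147 TPM. In MDA-MB-436 the FN1 means were higher in 7TGP-POS, 53.1 against 24.3 TPM in low serum and 43.15 against 25.5 TPM in standard serum. The MDA-MB-231 count of 14 fell to 5 with limma on TPM, and that of 7 in standard serum to 3 with DESeq2 and to 3 or 4 without 7TGP-NEG replicate 1, 7TGP-NEG replicate 2 or 7TGP-POS replicate 1.

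Of 21 genes for corepressors and turnover factors of the SNAIL and ZEB proteins, 20 were tested, and 5 were higher and 3 lower in 7TGP-POS cells of MDA-MB-231 in low serum (median log2 fold change 0.0038), 4 and 2 in standard serum (median 0.03), 4 and 9 in MDA-MB-436 in low serum (median -0.08) and 6 and 5 in standard serum (median 0.06). None of the 20 was a DEG in these 4 comparisons, against 5.91% and 7.69% of all genes in MDA-MB-231 in low and standard serum and 10.6% and 12.5% in MDA-MB-436. Between the lines, PRKD1, a kinase that phosphorylates SNAIL, was a DEG in both serum conditions and higher in 7TGP-NEG cells of MDA-MB-436, at 20.02 against 0.055 TPM in low serum (edgeR adjusted p = 4.88e-39). LOXL2, a lysyl oxidase that acts with SNAIL, was higher in 7TGP-NEG cells of MDA-MB-231, by 1.84 and 2.84 (edgeR adjusted p = 1.48e-35 and 3.53e-16). Of 10 Wnt feedback target genes, 5 were higher and 1 lower in 7TGP-POS cells of MDA-MB-231 in low serum (median 0.34), and 1 and 1 in standard serum (median -0.07). Of all genes, 38.7% and 33% passed there. The list held 1 DEG in MDA-MB-231 in low serum and 1 in standard serum, both higher in 7TGP-POS. In MDA-MB-436, 3 were higher and 2 lower (median 0.0086), and 2 and 2 (median -0.10), against 52% and 49.5% of all genes. DKK1, a secreted Wnt inhibitor, rose by 2.10 and 1.78 in MDA-MB-436 (edgeR adjusted p = 4.87e-34 and 6.21e-12). In the same line the Wnt inhibitor gene NKD1 fell by 1.21 in low serum (edgeR adjusted p = 5.07e-06), and the transcription factor gene SP5 fell by 1.13 in standard serum (edgeR adjusted p = 0.000644). RNF43, which encodes a ligase that removes Wnt receptors, also passed as lower there (edgeR adjusted p = 0.00828), at 0.025 against 0.135 TPM.

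Genes whose pattern was most like that of a member were found by Pearson's r of log2(TPM + 1), centred within each serum condition, over the 16 libraries and 15286 genes. For most members this measure follows the difference between the 2 lines, which all 16 libraries share, and it is given as a description. The closest gene was ATP2A3 for SNAI1 (r = 0.998), LTBP1 for SNAI2 (r = 0.996), ZIC5 for TWIST1 (r = 1.00), C1QTNF4 for TWIST2 (r = 0.998), SMURF2 for ZEB1 (r = 0.997), TIMM21 for ZEB2 (r = 0.996) and MMP25 for FOXC2 (r = 0.984). PRRX1, which varied with reporter activity in both lines, had lower values, with TFAP2C at r = 0.953 and HES1 at r = 0.945. With a pseudocount of 0.1 in place of 1, the 3 closest genes stayed the same for ZEB1 and PRRX1, and none of the 3 was shared for SNAI1 and TWIST1.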

How the data were processed

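RNA-Seq was analysed for 16 libraries in 8 groups of 2 biological replicates. The authors deposited counts, whole numbers of read pairs for each gene. They aligned reads to hg19 with STAR (2.6.1a per the submitters' processing notes) and counted pairs on Gencode v19 genes, with no normalization. The TPM values were made by the authors and deposited beside the counts, and how they were calculated is not given in the sources used here. Symbols and coordinates come from Gencode v44 lifted to GRCh37, which matched 55538 of 57820 gene IDs. Of 131 genes on the lists, 130 were matched. The members and gene lists were chosen with earlier results of these data known.

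Each serum condition was processed separately. Genes coding for protein and reaching 10 counts over 8 libraries entered edgeR's quasi-likelihood fit (robust, TMM factors, 4 groups), with Benjamini-Hochberg adjustment over all genes tested. A DEG passes at an adjusted p under 0.05 with a log2 fold change of 1 or more in either direction. For the standard error, the size of the log2 fold change was divided by the root of the F statistic. The interaction is the log2 fold change of 7TGP-POS over 7TGP-NEG in MDA-MB-231 minus that in MDA-MB-436. Levels are TPM per library, and medians of neighbours used up to 50 genes whose mean reached 1 CPM. The scripts were tested on simulated data. Named genes were all members, at most 3 called genes per list and comparison with the smallest adjusted p, CDH1, EPCAM, VIM and CDH2, the markers, the 3 genes most like each member, and genes that overlap a member, of which a subset is printed. Alternatives were DESeq2, its size factors, other filters, biotypes and prior counts, limma-trend on log2(TPM + 1) and log2(TPM + 0.1), each library left out and a replicate block. Within a line the differences between replicates correlated between 7TGP-NEG and 7TGP-POS with r from -0.16 to 0.39, and no source says that the numbers pair the samples. Versions were R 4.3.3, edgeR 4.0.16, limma 3.58.1, DESeq2 1.42.0, Python 3.11.15, pandas 2.3.3, numpy 2.4.6 and matplotlib 3.10.9.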

Additional observations from a re-analysis of the deposited data

Results flagged for a closer look

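The responses of the 2 cell lines to reporter state differed by the interaction test for 3 of the 9 members tested. In low serum 1 of them passed, against 45.7% of all genes, and in standard serum 3 passed, against 41.2%. The counts are therefore not a result about these genes as a class. For SNAI2, the log2 fold change of 7TGP-POS over 7TGP-NEG in MDA-MB-231 minus that in MDA-MB-436 was 1.36 in low serum and 1.46 in standard serum. It was higher in 7TGP-POS in all MDA-MB-231 libraries and lower in all MDA-MB-436 libraries of each condition. For ZEB2 the difference was -0.45 in standard serum, where both lines had higher values in 7TGP-POS. For PRRX1 it was 0.73 in standard serum, also with higher values in 7TGP-POS in both lines. The calls of ZEB2 and PRRX1 depended on single libraries, and that of PRRX1 was absent with the DESeq2 Wald test (adjusted p = 0.1).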

How the results depend on the processing

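Of 858 values of single members under 18 alternatives (49 results), 804 kept their direction and their side of the threshold, 12 passed where they had not, 25 no longer passed and 17 changed sign. The sign changed only for differences that did not pass. On limma's log2(TPM + 1) and log2(TPM + 0.1), TWIST2 in MDA-MB-436 in low serum was -0.15 and -0.16, and PRRX1 between the lines in low serum was -0.16 and -0.27. On log2(TPM + 1) the SNAI1 interaction was 0.16 in low serum and 0.029 in standard serum. In low serum these TPM scales moved the median of all genes to between -0.13 and -0.21 in the reporter comparisons and to -0.19 and -0.33 between the lines. With 1 library left out, values that crossed 0 ranged in low serum from -4.69 to 4.20 for GRHL2 in MDA-MB-231, which rests on single counts, from -0.55 to 0.22 for FOXC2 in MDA-MB-436, from -0.27 to 0.060 for the PRRX1 interaction, from -0.75 to 4.35 for the FOXC2 interaction and from -0.066 to 0.27 for PRRX1 between the lines. In standard serum they ranged from -0.73 to 0.25 for TWIST2 and from -0.047 to 0.26 for ZEB1 in MDA-MB-436. Where 0 members were DEGs, in MDA-MB-231 in low serum, limma on log2(TPM + 0.1) gave 1, SNAI1. In standard serum there, the 1 DEG became 2 with DESeq2's size factors, the DESeq2 Wald test or all biotypes, 0 with limma on log2(TPM + 1), and 1 to 2 with a library left out. In MDA-MB-436 in standard serum the 0 DEGs became 0 to 1 with a library left out. Of members with an adjusted p under 0.05, the 6 in MDA-MB-436 in low serum became 3 to 6 and the 1 low serum interaction became 1 to 2. With a replicate block, the number of members that passed was 3, 6, 3 and 4 in the 4 reporter comparisons, as without it. A crossed replicate block in low serum, chosen after seeing the data because the replicate differences of MDA-MB-436 correlated negatively, left 3 and 6. Over all genes, the DEGs of MDA-MB-231 (949 in low and 1185 in standard serum) were 302 and 522 with limma on log2(TPM + 1), those of MDA-MB-436 (1702 and 1932) were 793 and 941, those of the low serum interaction (1886) were 1117 (its 7338 genes with an adjusted p under 0.05 were 4870 on log2(TPM + 0.1)), and those between the lines in low serum (6739) were 10397 with all biotypes. The few counts of FOXC2, GRHL2 and OVOL1 limit what could be detected.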
